A study of Mus musculus with 3 samples.

Results

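The genes described here encode costimulatory receptors of T cells, together with surface ligands that lymphocytes use in the same exchange. There are 10 of them, Tnfrsf4, Tnfrsf9, Tnfrsf18, Icos, Cd28, Cd27, Cd226, Cd40lg, Cd70 and Crtam, taken by symbol from the gene list of the deposited matrices. Each symbol matched 1 of the 55401 genes listed, so all 10 were measured. They are followed across CD8, conventional CD4, regulatory and gamma-delta T cells, natural killer (NK) cells and 3 ages of mice.

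A T cell needs a signal through its antigen receptor and a further, costimulatory signal to divide, survive and make cytokines. Cd28 and Icos belong to the immunoglobulin superfamily and bind Cd80, Cd86 and Icosl on antigen-presenting cells. Tnfrsf4 (OX40), Tnfrsf9 (4-1BB), Tnfrsf18 (GITR) and Cd27 belong to the tumour necrosis factor receptor family, bind trimeric ligands and signal through TNF receptor associated factors to NF-kB. Cd226 (DNAM-1) and Crtam are adhesion-type receptors of cytotoxic lymphocytes that bind nectin family proteins, while Cd40lg and Cd70 are ligands that T cells show to Cd40 and Cd27. In tumours, regulatory T cells are known for high levels of several TNF receptor family members, and antibodies to these receptors have been studied as immunotherapies.

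The cells came from tumours of YUMM1.7, a transplantable mouse melanoma line, grown under the skin from 500000 injected cells and taken after 18 days. The groups were tumour-bearing mice aged 4, 12 and 20 months, 7 mice at each age, with 1 library per age. The 3 groups shared the tumour line, the injected dose and the interval, and no tumour-free or treated group is among the samples. The labels do not give strain or sex, nor whether the cells of the 7 mice were pooled. Live cells stained for CD45.2, a leukocyte surface protein, were sorted, although the labels name the cell type as melanoma. The summed level of 6 melanoma genes did not exceed 22.8 counts per 1000000 counts (CPM) in any lymphocyte class and library, so that label was not borne out in the classes described here.

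With 1 library per age there was no replicate, and no difference between ages carries a test. Differences between cell classes carry none either, since the classes are clusters of the same cells. Levels in CPM are the counts of a gene summed over the cells of a class in a library, scaled by the total count of that class and library, with exact Poisson 95% intervals. Differences are log2 ratios of CPM with exact conditional binomial 95% intervals, and both intervals cover counting error only. A member was called higher or lower when its level differed by 1.5-fold or more and its mean over the 3 libraries reached 10 CPM. The share of all genes called by the same rule is given beside each count of members, except for counts recomputed under alternative processing. The assay counts the 3′ ends of transcripts, so levels are compared between classes and ages and not between genes.

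The median count per cell was 6789, 7411 and 6936 in the libraries of 4, 12 and 20 months, which were deposited with 14393, 14653 and 14684 cells, and 13528, 13774 and 13803 cells were kept after removal of doublets. Between 2 and 4 cell barcodes were shared by each pair of libraries. CD8 T-like cells numbered 2999, 4553 and 5035, regulatory T-like cells 735, 630 and 490, NK-like cells 2285, 2093 and 1610, and gamma-delta T-like cells 67, 79 and 87. Conventional CD4 T-like cells numbered 9, 69 and 20, too few for a comparison of ages. In the 4-month library these 9 cells held Cd8a at 656 CPM and Cd4 at 168 CPM, so the name is weak there. A further 1255, 1354 and 545 T-like cells had markers of more than 1 class and stayed unnamed. Named by their highest score, these cells joined the CD8 class, which then numbered 4254, 5907 and 5580. Foxp3, which defines regulatory T cells, stood at 235, 197 and 166 CPM in regulatory T-like cells and at 11.2 CPM or less in the other 4 classes. Ncr1, an NK cell receptor, stood at 749, 726 and 664 CPM in NK-like cells and at 53.2 CPM or less in the T cell classes just named.

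Free RNA was present in every class. Monocyte/macrophage-like cells, which should lack most of these receptors, held Cd8a at 65.8, 106 and 103 CPM and Cd3e at 54.2, 109 and 103 CPM. The levels of 11 macrophage markers summed to between 1322 and 2036 CPM in the 5 lymphocyte classes, against 16317 to 19338 CPM in macrophage-like cells. The level of each member in macrophage-like cells is therefore used as the background of that member. A lymphocyte level at or below it is not read as expression.

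Tnfrsf4 and Tnfrsf18 are neighbours on chromosome 4 of GRCm38. Tnfrsf4 lies at chr4:156013843-156016612 and Tnfrsf18 at chr4:156026164-156028895, both on the forward strand, and their RefSeq starts are 12627 bases apart. Tnfrsf9 lies on the same chromosome and strand at chr4:150914562-150946102, and has a pair of RefSeq starts that are 7844 bases apart, both within the annotated gene. These 3 genes are shown by the 250 bases before each start because they share a chromosome and each was highest in regulatory T-like cells. The windows are from the RefSeq table for GRCm38.p6, which held 4 of the 10 members in 5 windows. Capitals mark matches to the motifs of NF-kB, AP-1 and STAT factors.
Tnfrsf9, chr4:150919905-150920154, forward strand: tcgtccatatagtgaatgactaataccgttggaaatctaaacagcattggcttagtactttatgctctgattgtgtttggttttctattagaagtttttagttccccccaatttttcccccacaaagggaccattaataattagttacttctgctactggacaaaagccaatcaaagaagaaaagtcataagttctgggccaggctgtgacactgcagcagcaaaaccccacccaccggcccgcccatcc
Tnfrsf9, chr4:150927749-150927998, forward strand: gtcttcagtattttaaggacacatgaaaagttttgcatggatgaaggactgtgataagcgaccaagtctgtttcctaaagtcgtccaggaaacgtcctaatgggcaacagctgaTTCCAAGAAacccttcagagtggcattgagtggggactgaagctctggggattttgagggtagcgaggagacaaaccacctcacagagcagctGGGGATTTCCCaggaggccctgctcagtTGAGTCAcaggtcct
Tnfrsf4, chr4:156013445-156013694, forward strand: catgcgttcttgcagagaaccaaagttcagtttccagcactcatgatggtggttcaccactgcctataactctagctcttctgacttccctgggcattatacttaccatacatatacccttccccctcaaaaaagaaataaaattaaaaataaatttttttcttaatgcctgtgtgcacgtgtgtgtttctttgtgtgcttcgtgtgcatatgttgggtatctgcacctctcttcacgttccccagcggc
Tnfrsf18, chr4:156026072-156026321, forward strand: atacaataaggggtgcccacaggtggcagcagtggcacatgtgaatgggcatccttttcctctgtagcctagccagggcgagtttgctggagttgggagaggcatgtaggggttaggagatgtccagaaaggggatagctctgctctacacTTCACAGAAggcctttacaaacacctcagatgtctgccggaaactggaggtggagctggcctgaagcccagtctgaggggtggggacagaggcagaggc

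Both strands of each window were searched for 7 motifs. The second Tnfrsf9 window held a STAT match (TTCNNNGAA) that began 136 bases before the start, overlapping NF-kB matches that began 43 and 42 bases before it, and an AP-1 match (TGANTCA) that began 15 bases before it. The Tnfrsf18 window held a STAT match 99 bases before the start and an NFAT match (GGAAAA) 196 bases before it. The first Tnfrsf9 window held an NFAT match 138 bases before the start, and the Tnfrsf4 window an ETS match (GGAAGT) 167 bases before it. The Cd27 window, not printed, held an NFAT match 52 bases before the start. The RUNX (TGTGGT) and forkhead (TGTTTAC) letters were in none of the 5 windows, and no match of 1 motif overlapped a match of another. Of all 32851 windows in the table, 7.25% held an NF-kB match, 6.75% AP-1, 7.02% STAT, 20.4% NFAT, 19.7% ETS, 14.0% RUNX and 3.17% forkhead. A match describes letters and is not a binding site.

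Regulatory T-like cells held the highest level among the 5 lymphocyte classes in all 3 libraries for 5 of the 10 members, where the same held for 7.52% of all 10313 genes at 10 CPM or more in any class. The 5 were Tnfrsf4, Tnfrsf9, Tnfrsf18, Icos and Cd27. Without the few conventional CD4 T-like cells it was 6 of 9 members, with Cd28 added, against 17.1% of genes. This order is a description, since the genes were chosen with earlier results of these data known and the same cells were clustered into the classes.

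**Figure D1:**
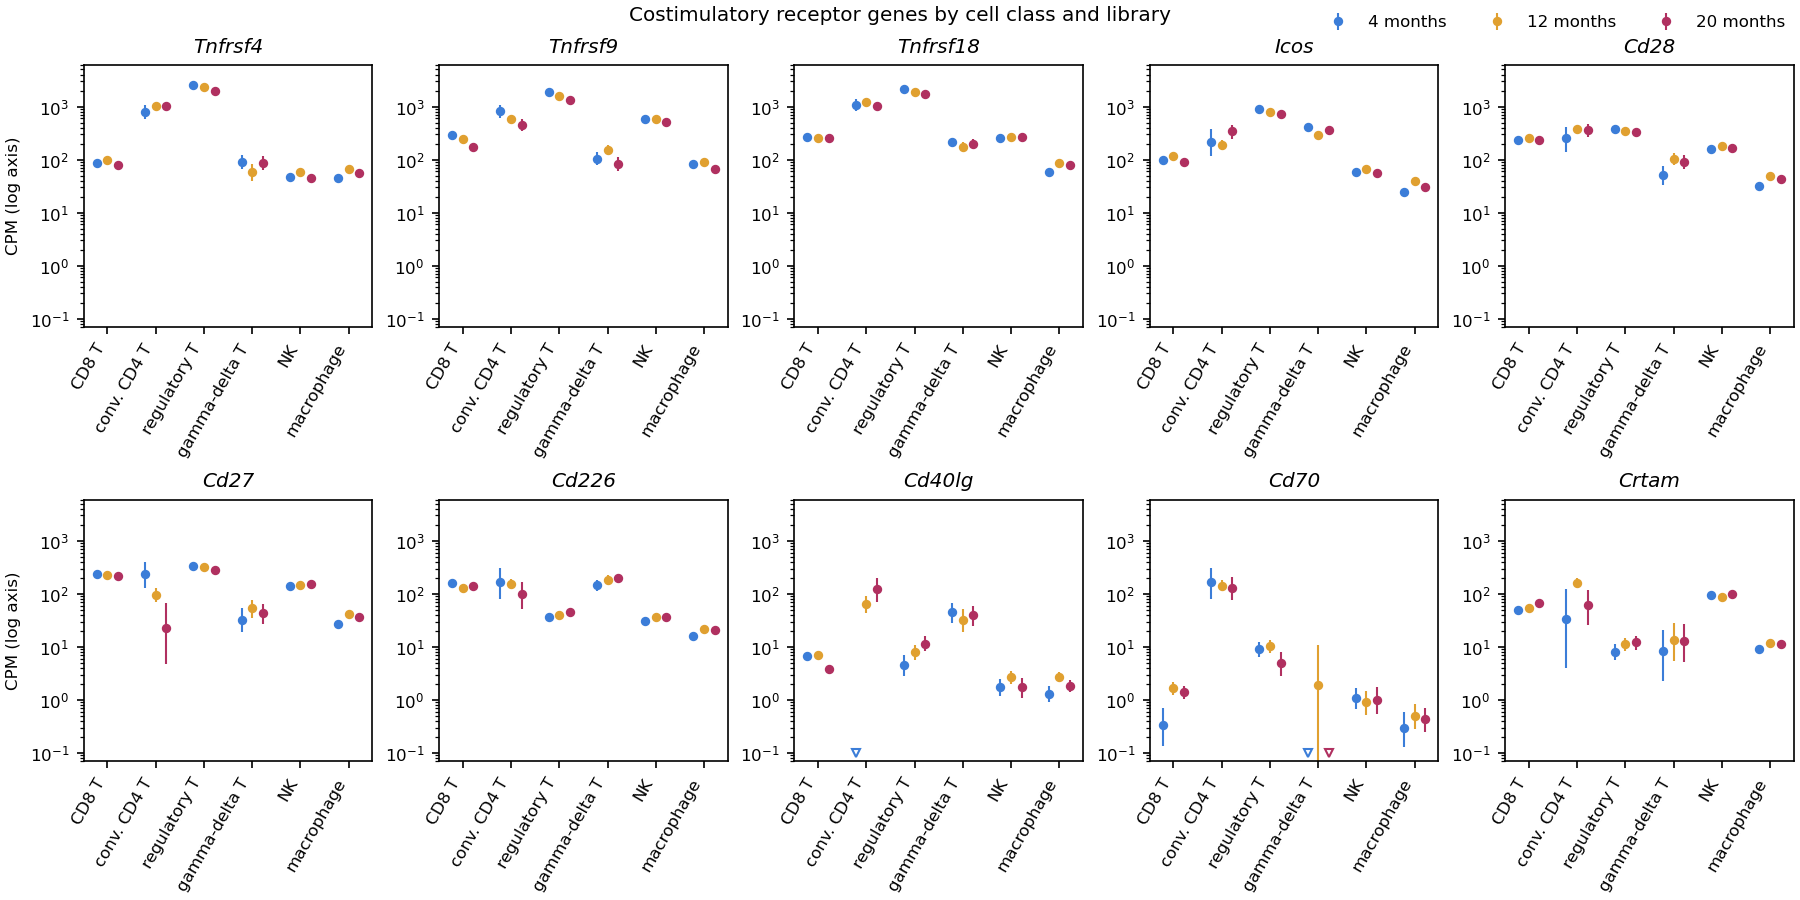
Level of each member in CPM (log axis) in 5 lymphocyte classes and in monocyte/macrophage-like cells, with 1 point per library (4, 12 and 20 months) and exact Poisson 95% intervals, open triangles marking libraries with no count. Tnfrsf4 lies between 1968 and 2557 CPM in regulatory T-like cells and between 44.1 and 66.6 CPM in macrophage-like cells.

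Tnfrsf4, whose protein supports survival of activated T cells, stood at 2557, 2308 and 1968 CPM in regulatory T-like cells at 4, 12 and 20 months. In CD8 T-like cells it stood at 86.5, 97.0 and 79.6 CPM, and in macrophage-like cells at 44.1, 66.6 and 55.8 CPM. The lowest regulatory level was therefore far above every level in the CD8, NK-like and gamma-delta T-like classes, and only conventional CD4 T-like cells came near, at 790, 1009 and 1004 CPM. NK-like cells, at 46.4, 57.4 and 44.0 CPM, overlapped macrophage-like cells. The ranges of CD8 and gamma-delta T-like cells overlapped, the latter at 90.2, 57.6 and 86.1 CPM. At 12 months the gamma-delta level lay below the macrophage-like level and is not read as expression. Regulatory T-like cells made up a few percent of the cells kept, yet carried 66.0%, 54.8% and 49.9% of all Tnfrsf4 counts in the 3 libraries.

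Tnfrsf18, often used as a marker of regulatory and activated T cells, had the same leading classes. It stood at 2131, 1886 and 1739 CPM in regulatory and at 1076, 1213 and 1026 CPM in conventional CD4 T-like cells. The remaining classes formed a narrow band, with CD8 T-like cells at 265, 252 and 260 CPM, NK-like cells at 259, 268 and 264 CPM and gamma-delta T-like cells at 211, 175 and 200 CPM. CD8 and NK-like cells overlapped, and both lay above macrophage-like cells at 59.5, 85.9 and 78.9 CPM.

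Tnfrsf9 was high in NK-like cells as well as in T cell classes. It stood at 1888, 1547 and 1328 CPM in regulatory T-like cells and at 576, 570 and 515 CPM in NK-like cells. The few conventional CD4 T-like cells held it at 824, 589 and 449 CPM, a range that overlapped that of NK-like cells. CD8 T-like cells followed at 291, 245 and 173 CPM, below NK-like cells in each library. Gamma-delta T-like cells, at 104.5, 153.5 and 84.2 CPM, overlapped macrophage-like cells at 81.3, 89.9 and 67.5 CPM. NK-like cells carried 35.5%, 31.6% and 30.5% of all Tnfrsf9 counts, the largest share of any class in each library.

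Cd27, a receptor of resting and activated lymphocytes that binds Cd70, lies on chromosome 6 at chr6:125232622-125237010 on the reverse strand. It stood at 341, 315 and 280 CPM in regulatory, 236, 228 and 214 CPM in CD8 T-like and 140, 146 and 152 CPM in NK-like cells, with no overlap between these ranges. The few conventional CD4 T-like cells held it at 235, 96.9 and 22.8 CPM. Gamma-delta T-like cells, at 32.8, 53.7 and 43.0 CPM, were above macrophage-like cells, at 26.6, 42.4 and 36.6 CPM, within each library, but the ranges overlapped.

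Cd28 and Icos are neighbours on the forward strand of chromosome 1, at chr1:60716800-60773359 and chr1:60977927-61000320. Cd28, the first costimulatory receptor of naive T cells, stood at 377, 353 and 336 CPM in regulatory and 238, 255 and 238 CPM in CD8 T-like cells. The few conventional CD4 T-like cells held Cd28 at 252, 373 and 357 CPM, overlapping the regulatory range. NK-like cells held it at 157, 183 and 166 CPM, above macrophage-like cells at 31.7, 49.99 and 44.0 CPM. Gamma-delta T-like cells held the least of the 5 classes, 51.2, 104 and 91.7 CPM.

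Icos, which is induced on activated T cells, was higher in gamma-delta than in CD8 T-like cells in each library. It stood at 918, 800 and 721 CPM in regulatory, 404, 296 and 369 CPM in gamma-delta and 97.9, 118 and 89.3 CPM in CD8 T-like cells. Each of these ranges lay apart from the next. The few conventional CD4 T-like cells held Icos at 219, 188 and 342 CPM, overlapping the gamma-delta range. NK-like cells, at 57.3, 66.4 and 57.1 CPM, were above macrophage-like cells at 24.5, 39.5 and 30.8 CPM, so the ranges did not overlap.

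Cd226 is on chromosome 18, and Crtam is on the reverse strand at chr9:40969691-41004628. These receptors of cytotoxic cells had orders unlike that of the TNF receptor members. Cd226 stood at 146, 182 and 198 CPM in gamma-delta and 160, 130 and 143 CPM in CD8 T-like cells, with overlapping ranges. The few conventional CD4 T-like cells, at 168, 155 and 98.8 CPM, overlapped both. Regulatory T-like cells at 37.1, 40.8 and 46.5 CPM and NK-like cells at 31.4, 37.2 and 36.1 CPM lay below them, over a macrophage-like level of 15.9, 22.1 and 21.2 CPM. Crtam stood at 95.6, 87.0 and 97.5 CPM in NK-like and 49.9, 53.6 and 67.4 CPM in CD8 T-like cells. The few conventional CD4 T-like cells had 33.6, 159 and 60.8 CPM of Crtam, from 2, 79 and 8 counts, overlapping both. In regulatory T-like cells, at 8.03, 11.3 and 12.1 CPM, Crtam was at the macrophage-like level of 8.98, 11.7 and 11.1 CPM and is not read as expressed.

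Cd40lg, on the forward strand at chrX:57212143-57224042, encodes the ligand by which helper T cells license dendritic cells and B cells. It had 45.1, 32.6 and 39.3 CPM in gamma-delta T-like cells, from 22, 17 and 21 counts. Conventional CD4 T-like cells had 0, 32 and 16 counts, the last 2 equal to 64.6 and 122 CPM. The 0 among 59462 counts allows a level of up to 50.5 CPM, and a level below that was not detectable at this depth. CD8 T-like cells at 6.78, 7.13 and 3.87 CPM stood above macrophage-like cells at 1.32, 2.71 and 1.85 CPM, and NK-like cells at 1.74, 2.73 and 1.72 CPM overlapped them. Cd70, on the reverse strand at chr17:57145997-57149777, was highest in conventional CD4 T-like cells at 168, 143 and 129 CPM, from 10, 71 and 17 counts. Regulatory T-like cells had 8.94, 10.3 and 4.91 CPM of it, and in the other 3 lymphocyte classes it did not exceed 1.92 CPM. Cd70 was among the 10 leading genes of 2 of the 4 small sub-clusters that make up the conventional CD4 class, beside Csf2, Ccl1 and Penk.

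The share of cells with at least 1 count gave the same picture after each cell was thinned to 2000 counts, which removes differences in depth. Tnfrsf18 was detected in 95.1%, 94.1% and 94.3% of regulatory T-like cells, Tnfrsf4 in 92.9%, 91.1% and 89.6% and Tnfrsf9 in 86.0%, 85.7% and 81.4%. Without thinning, these shares were 99.6%, 99.5% and 99.8% for Tnfrsf18, 98.4%, 98.7% and 98.4% for Tnfrsf4 and 97.4%, 98.1% and 96.5% for Tnfrsf9, at median counts of 4935, 6256.5 and 5831.5 per cell. In macrophage-like cells, with medians of 7843, 8913 and 8132 counts, the thinned shares were 11.5%, 14.4% and 12.5% for Tnfrsf18, 8.22%, 11.3% and 9.30% for Tnfrsf4 and 14.4%, 14.8% and 10.4% for Tnfrsf9. Regulatory T-like cells held these receptors as a class rather than in a small subset of cells.

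Of the 10 members, a regulatory T-like cell thinned to 2000 counts held on average 4.62, 4.53 and 4.38 at 4, 12 and 20 months. A CD8 T-like cell held 2.17, 2.16 and 1.96, an NK-like cell 1.86, 2.01 and 1.87 and a macrophage-like cell 0.553, 0.704 and 0.562.

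Between 4 and 20 months, 1 of 8 members at 10 CPM or more in CD8 T-like cells was called lower, Tnfrsf9, where 1.45% of all genes were. None was called higher, where 2.36% of genes were. The levels of 291, 245 and 173 CPM gave a log2 ratio of -0.75 (95% interval -0.80 to -0.70) at 20 against 4 months, a 1.68-fold lower level. The 12-month library lay between the other two, with a log2 ratio of -0.25 against 4 months, and at that age none of the 8 members was called lower (0.956% of genes) or higher (2.09%). The log2 ratio of the level at 20 months to that at 12 months was -0.50, and in that contrast too no member was called lower (0.847%) or higher (0.726%). After thinning, 32.8%, 30.4% and 23.5% of CD8 T-like cells had a Tnfrsf9 count, and without it 60.4%, 63.4% and 50.1%. Tnfrsf9 in macrophage-like cells was also lower at 20 than at 4 months, by a log2 ratio of -0.27, while the 7 other members at 10 CPM or more in CD8 T-like cells were higher there by 0.31 to 0.47. With the unnamed T-like cells counted as CD8 T-like cells, the log2 ratio of Tnfrsf9 at 20 against 4 months was -0.63. The call of Tnfrsf9 was lost with library-specific genes kept in the clustering, where the log2 ratio was -0.43, and it had the same direction.

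The other members moved less in CD8 T-like cells. Crtam, at 49.9, 53.6 and 67.4 CPM, was higher at 20 months by 0.43 (0.33 to 0.54). Cd226, Cd27, Icos and Tnfrsf4 had log2 ratios of -0.16, -0.14, -0.13 and -0.12, and Tnfrsf18 had -0.03. Cd28 was nearly level at 238, 255 and 238 CPM, with an interval of -0.05 to 0.05. All genes at 50 CPM or more had a median log2 ratio of -0.11 in this contrast. Macrophage-like cells held Tnfrsf4 at 51.0%, 68.7% and 70.1% of its CD8 T-like level in the 3 libraries, and with the macrophage-like level subtracted Tnfrsf4 had a log2 ratio of -0.83 and was called lower.

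**Figure D2:**
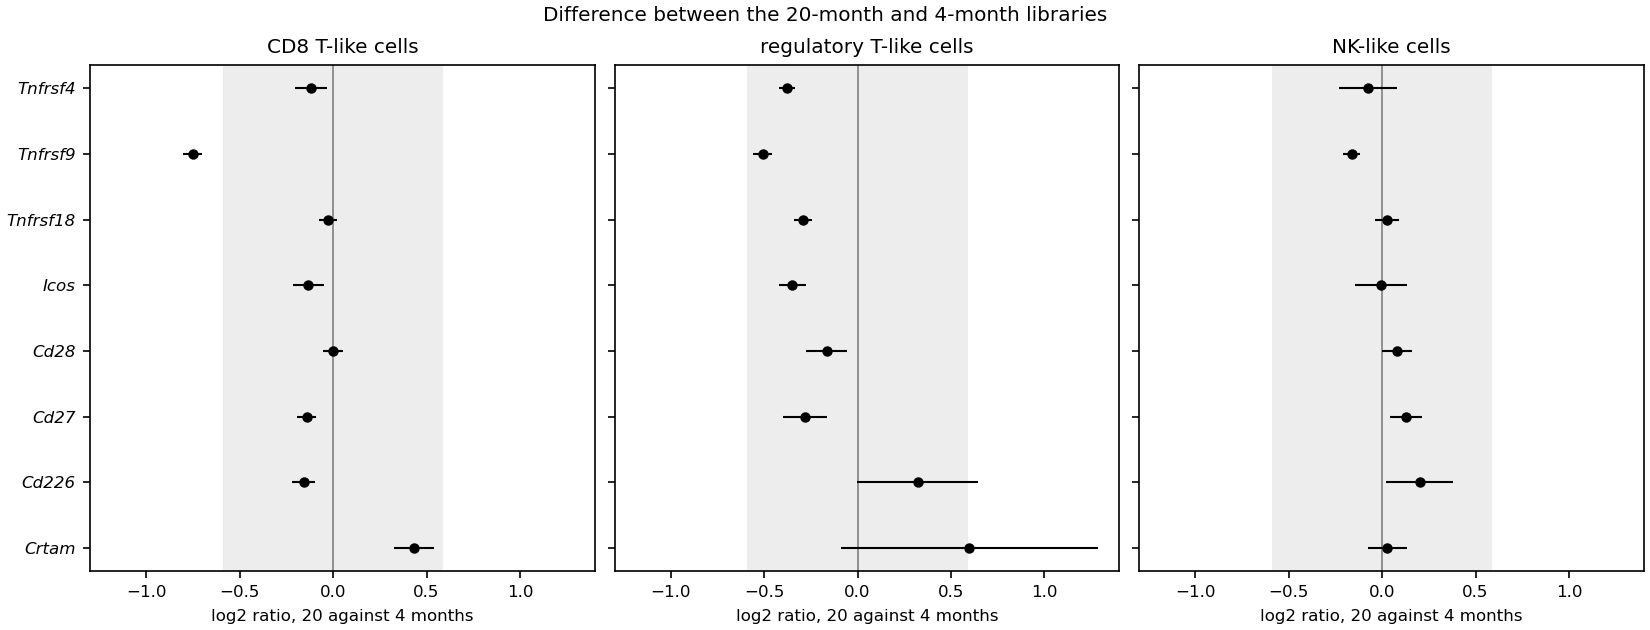
Log2 ratio of CPM at 20 against 4 months for the 8 members at 10 CPM or more in CD8, regulatory T-like and NK-like cells, with exact 95% intervals for counting error and grey shading for differences under 1.5-fold. Tnfrsf9 in CD8 T-like cells, at -0.75, lies below the shading, and in regulatory T-like cells 6 of the 8 points lie below 0.

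A resting sub-cluster, whose leading genes included Ccr7 and Dapl1, genes of naive and memory cells, made up 16.8%, 22.5% and 37.9% of CD8 T-like cells at 4, 12 and 20 months. With library-specific genes kept in the clustering the resting sub-cluster held 26.8%, 31.2% and 11.2%, so the 20-month library went from the highest to the lowest share. Its leading genes included Hbb-bs, a haemoglobin gene of red blood cells. Tnfrsf9 in these cells stood at 127, 109 and 85.2 CPM, against 323, 285 and 224 CPM in the other CD8 T-like cells, a log2 ratio of -1.34, -1.38 and -1.39 between them. Within each part the 20-month level was lower than the 4-month level, by -0.58 (-0.74 to -0.41) in the resting and by -0.53 (-0.58 to -0.47) in the other cells, neither reaching -0.75 as the whole class did. The resting levels stood over a macrophage-like Tnfrsf9 level of 81.3, 89.9 and 67.5 CPM, itself lower at 20 than at 4 months. The part of free RNA in the resting ratio was not tested. Among the other CD8 T-like cells, 0 of 8 members were called lower (1.11% of genes) or higher (2.4%) at 20 than at 4 months.

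With the sub-cluster shares of the 4-month library applied to all ages, Tnfrsf9 stood at 290, 270 and 197 CPM, a log2 ratio of -0.56 at 20 against 4 months. The 5 CD8 sub-clusters with at least 20 cells at both 4 and 20 months each had a lower level at 20 months. The largest difference was in sub-cluster 0, whose leading genes included Ccl4, Lag3 and Pdcd1, genes of chronically stimulated effector cells, at 464, 436 and 267 CPM. Sub-cluster 6, whose leading genes included Ccr2, Cxcr6 and Cxcr3, had the smallest, at 136, 152 and 115 CPM, where the 12-month library was above both others. The intervals of all 5 ratios lay below 0. A lower level in all 5 sub-clusters was common among genes, 19.5% of 8260, and held for 2 of 8 members, Tnfrsf9 and Cd27.

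**Figure D3:**
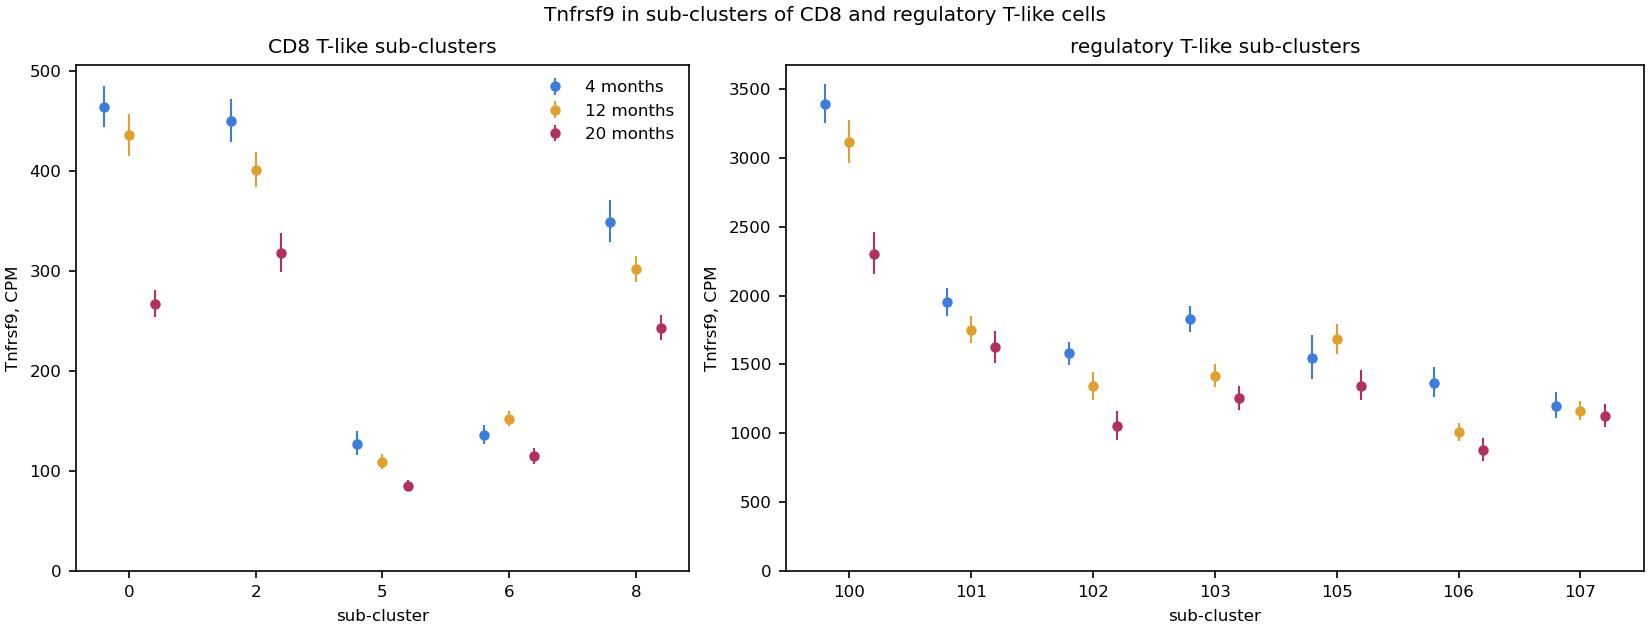
Tnfrsf9 level in CPM by library in the 5 CD8 and 7 regulatory T-like sub-clusters with at least 20 cells at both 4 and 20 months, with exact Poisson 95% intervals. In each sub-cluster the 20-month point lies below the 4-month point, from 464 to 267 CPM in CD8 sub-cluster 0 and from 1200 to 1126 CPM in regulatory sub-cluster 107.

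Across CD8, regulatory, unnamed T-like and NK-like cells, Tnfrsf9 was lower at 20 than at 4 months in all 17 sub-clusters or clusters with enough cells. The same was true of 1.16% of the 7417 genes at 10 CPM or more in all 4 classes, and of no other member among 8. The ratios ran from -0.80 in CD8 sub-cluster 0 to -0.09 in regulatory sub-cluster 107. In NK-like cells the main cluster, led by Klra4, Klra8 and Ncr1, held 561, 559 and 502 CPM, and the cluster led by granzyme genes such as Gzmd and Gzmf held 752, 652 and 592 CPM. The 3 ages of each class come from the same 3 libraries, so the 17 values are not independent of one another. Outside these 17, Tnfrsf9 in gamma-delta T-like cells stood at 104.5 and 84.2 CPM at 4 and 20 months, from 51 and 45 counts. That class overlapped macrophage-like cells, used here as background, in which Tnfrsf9 was also lower at 20 months (81.3 and 67.5 CPM). Tnfrsf9 was lower in dendritic cell-like cells too, with 649 of 6098595 counts at 4 months and 459 of 6506783 at 20 months. No share of all genes is given for these classes.

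Resting and other CD8 T-like cells differed in some members beyond Tnfrsf9. Resting cells had the lower level in all 3 libraries for 6 of 8 members, where 47.7% of genes did, and the higher level for 1, Tnfrsf18, where 22.6% did. Cd226 stood at 76.5, 69.7 and 66.7 CPM in resting and 176, 147 and 188 CPM in other cells. Tnfrsf18 was nearly level, 285, 255 and 266 CPM against 261, 252 and 256 CPM, and the intervals of its ratio at 12 and 20 months held 0. Cd27 had log2 ratios of -0.02, -0.04 and -0.18, and Cd28 of -0.17, -0.31 and -0.32. Among the 6 members lower in resting cells, the intervals of Cd27 at 4 and 12 months and of Icos at 4 months held 0.

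For Icos the log2 ratio of resting to other CD8 T-like cells was -0.04, -0.43 and -0.84 at 4, 12 and 20 months, and for Tnfrsf4 it was -0.26, -0.47 and -0.85. Icos in resting cells stood at 95.4, 92.8 and 59.6 CPM and was the 1 of 8 members called lower there at 20 than at 4 months (-0.68, with 4.3% of genes called). In the other CD8 T-like cells Icos stood at 98.4, 125 and 107 CPM. With library-specific genes kept in the clustering Icos stood at 78.6, 82.4 and 78.9 CPM in resting cells, so this call was lost. Tnfrsf4 in resting cells, at 74.1, 74.8 and 52.9 CPM, was at 20 months no higher than the macrophage-like level of 55.8 CPM. Cd226 had ratios of -1.20, -1.08 and -1.50, and Crtam of 0.12, -0.23 and -0.35.

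**Figure D4:**
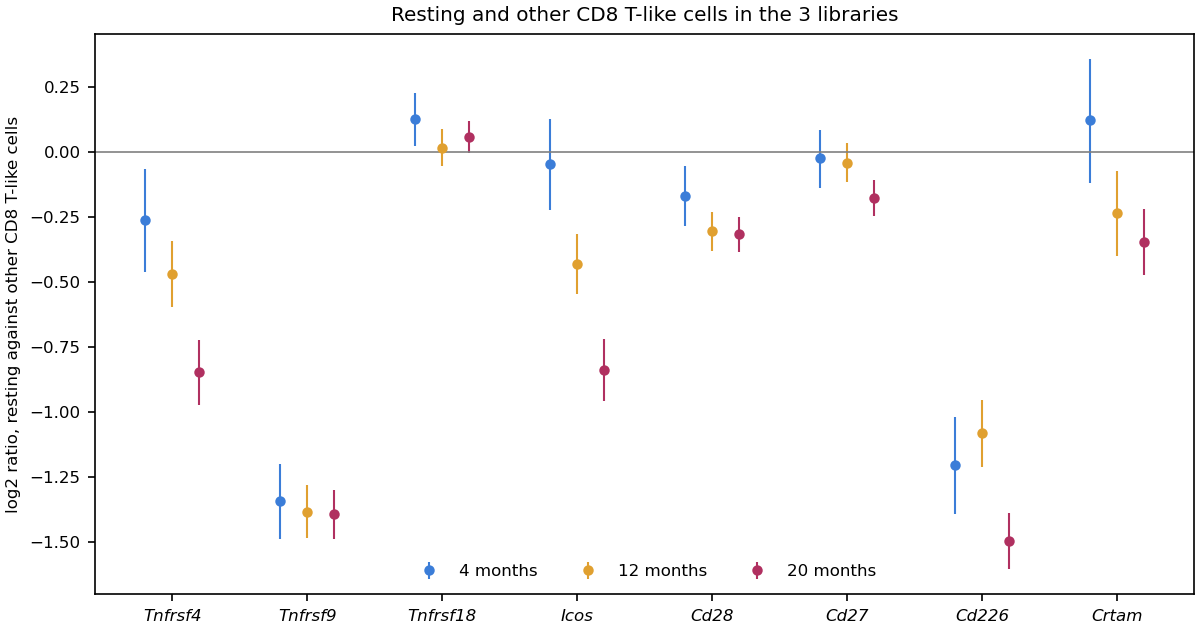
Log2 ratio of the level in resting to that in other CD8 T-like cells for the 8 members at 10 CPM or more, 1 point per library (4, 12 and 20 months), with exact 95% intervals for counting error. Tnfrsf9 is near -1.4 in all 3 libraries, Tnfrsf18 is near 0, and Icos and Tnfrsf4 have their lowest ratios, -0.84 and -0.85, at 20 months.

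In regulatory T-like cells the TNF receptor and CD28 family members were lower with age without passing 1.5-fold. At 20 against 4 months, 0 of 8 members were called lower, where 3.28% of genes were, and 1, Crtam, was called higher, where 4.25% were. Crtam, however, was at its macrophage-like level in this class and its interval ran from -0.09 to 1.28. No member was called lower (3.13%) or higher (3.6%) at 12 against 4 months, nor lower (1.89%) or higher (3.02%) at 20 against 12 months.

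The sizes below that limit were graded. Tnfrsf9, at 1888, 1547 and 1328 CPM, had a log2 ratio of -0.51 (-0.56 to -0.46) at 20 against 4 months. Tnfrsf4 had -0.38 (-0.42 to -0.33), Icos -0.35 (-0.42 to -0.28), Tnfrsf18 -0.29 (-0.34 to -0.25), Cd27 -0.28 (-0.40 to -0.17) and Cd28 -0.16 (-0.27 to -0.06). The members had a median of -0.29 beside -0.04 for all genes tested. Foxp3, from which the class was named, had a log2 ratio of -0.50 in the same cells, so the class marker and these receptors were lower together.

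Cd226 went the other way in regulatory T-like cells, at 37.1, 40.8 and 46.5 CPM with a log2 ratio of 0.32, and its interval touched 0. Macrophage-like cells held Cd226 at 42.9% to 54.2% of that level and were themselves higher by 0.42 at 20 than at 4 months. Cd8a was higher by 0.62 in the regulatory T-like cells, and the part of free RNA in the Cd226 ratio was not tested. It was higher at 20 than at 4 months in all 7 sub-clusters that had enough cells, where 3.74% of genes were, and no interval of the 7 excluded 0. Tnfrsf4, Tnfrsf9 and Icos were lower in all 7, where 3.25% of genes were, with 6, 6 and 5 of the intervals below 0. Standardised to the sub-cluster shares of 4 months, the ratios were -0.45 for Tnfrsf9, -0.35 for Tnfrsf4 and -0.32 for Icos.

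The regulatory sub-clusters differed in receptor level more than the ages did. Sub-cluster 100, whose leading genes were Tnfrsf4, Gm47050 and Penk, with Tnfrsf9, Il1r2 and Il2ra among the first 10, held Tnfrsf4 at 4996, 5374 and 3906 CPM and Tnfrsf9 at 3393, 3119 and 2306 CPM. Sub-cluster 107, in which 58.5% of cells were dividing, held Tnfrsf4 at 1641, 1531 and 1535 CPM and Tnfrsf9 at 1200, 1163 and 1126 CPM. The ranges of these sub-clusters did not overlap for either gene. Sub-cluster 100 made up 15.6%, 11.7% and 10.8% of regulatory T-like cells. The members took no part in the clustering, but genes that vary with them did.

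NK-like cells showed little difference between ages. At 20 against 4 months 0 of 8 members were called lower (0.654% of genes) or higher (2.19%), and the same held at 12 against 4 months (0.703% and 2.26%) and at 20 against 12 months (0.691% and 0.641%). Tnfrsf9, at 576, 570 and 515 CPM, had a log2 ratio of -0.16 (-0.21 to -0.12) at 20 against 4 months. Tnfrsf18 at 259, 268 and 264 CPM, Crtam at 95.6, 87.0 and 97.5 CPM and Icos at 57.3, 66.4 and 57.1 CPM each had an interval that held 0. Tnfrsf4, Icos, Cd28 and Cd226 were highest in the 12-month library, as they also were in macrophage-like cells.

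Gamma-delta T-like cells, at under 90 cells per library, gave wide intervals. At 20 against 4 months 0 of 9 members were called lower, where 17.4% of genes were, and 2 were called higher, where 15.9% were. These 2 were Cd28, with an interval of 0.12 to 1.60, and Crtam, at its macrophage-like level. For Cd28 the macrophage-like level was 61.9%, 48.2% and 48.0% of the gamma-delta level, and Cd8a and Cd8b1, genes of CD8 T cells, were higher by 1.31 and 1.03 in the same cells, whose part in this call was not tested. Il17a, a cytokine of gamma-delta and helper T cells, stood at 478, 491 and 696 CPM in these cells and at 3.75 CPM or less in the other 4 classes. At 12 against 4 months 1 of 9 was called lower (14.7% of genes), Tnfrsf4, and 3 higher (15%), Cd28, Cd27 and Crtam. Of these 4 ratios, the interval of Cd28 alone, 0.31 to 1.76, excluded 0. Tnfrsf4 in these cells lay below its macrophage-like level at 12 months. In conventional CD4 T-like cells 3 of 10 members were called lower (27.7% of genes) and 3 higher (16.1%) at 20 against 4 months, shares near those of all genes, from 9 and 20 cells, and nothing is read from them. At 12 against 4 months 1 was called lower (26.8%), Cd27, and 1 higher (16.4%), Crtam.

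Cd86, Cd80, Icosl and Cd40, partners of the members, had their highest levels outside the lymphocytes. Cd86 and Cd80, the partners of Cd28, were highest in dendritic cell-like cells, at 459, 395 and 374 CPM for Cd86 and 97.6, 97.5 and 68.7 CPM for Cd80. Icosl, the partner of Icos, stood at 65.9, 64.0 and 49.6 CPM there, and Cd40, the partner of Cd40lg, at 205, 186 and 139 CPM. Macrophage-like cells held Cd86 at 256, 261 and 212 CPM and Cd40 at 106, 96.0 and 82.2 CPM.

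The TNF family ligands were also measured in each class. Tnfsf9, the ligand of Tnfrsf9, stood at 50.01, 53.0 and 54.3 CPM in dendritic cell-like cells and at 235, 123 and 83.6 CPM in the few conventional CD4 T-like cells. Tnfsf4, the ligand of Tnfrsf4, stood at 10.2, 11.7 and 9.47 CPM in NK-like cells, and Tnfsf18, the ligand of Tnfrsf18, did not exceed 0.768 CPM in any class. Of the partners of Cd226 and Crtam, Pvr stood at 28.2, 31.1 and 27.2 CPM and Cadm1 at 19.5, 28.4 and 62.2 CPM in dendritic cell-like cells. Cadm1 was also highest at 20 months in macrophage-like cells, at 37.4, 43.8 and 66.7 CPM. Tumour and stromal cells, which could also carry these ligands, were not sorted.

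**Figure D5:**
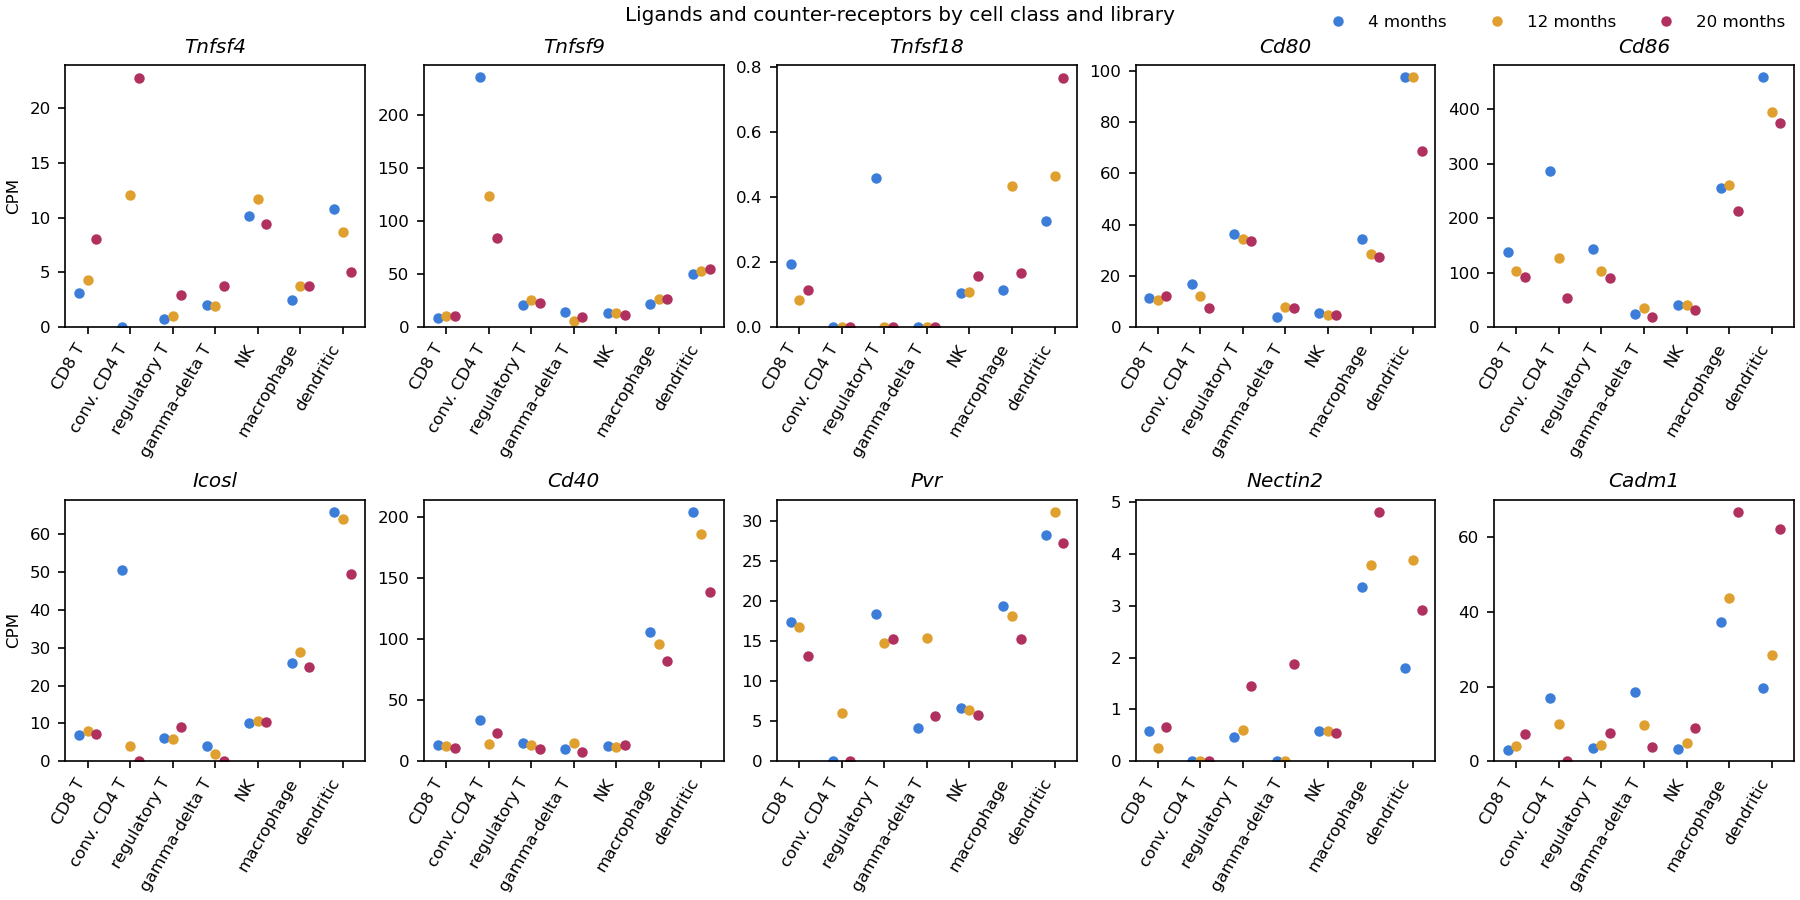
Level in CPM (linear axes that differ between panels) of 10 ligands and counter-receptors of the members in 5 lymphocyte classes, monocyte/macrophage-like and dendritic cell-like cells, 1 point per library (4, 12 and 20 months). Cd86, Cd80, Icosl and Cd40 are highest in dendritic cell-like cells, and Tnfsf18 stays below 1 CPM.

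Other genes of the pathway were read from 7 lists. Of the 17 TNF receptor associated factors and NF-kB genes tested, none was called at 20 against 4 months in CD8, regulatory T-like or NK-like cells. Their median log2 ratio was -0.27 in regulatory T-like cells, where the medians of the 7 lists ran from -0.41 to -0.08 and that of all genes tested was -0.04. In CD8 T-like cells it was -0.17, beside -0.10 for all genes tested. Within the regulatory class Traf1, an adaptor of Tnfrsf9 and Tnfrsf4 signalling, had 327 and 237 CPM at 4 and 20 months, and Tnfaip3, an inhibitor of NF-kB, had 202 and 148 CPM. Of the genes of CD28 and T cell receptor signalling, none of 16 was called in CD8 or regulatory T-like cells and none of 15 in NK-like cells, with medians of -0.09, -0.08 and -0.07.

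In CD8 T-like cells the lists that held called genes were those of inhibitory receptors, early activation and resting cells. There 3 of 9 inhibitory receptors were called lower at 20 than at 4 months, Cd244a (-0.99), Lag3 (-0.87) and Pdcd1 (-0.68), which are known from chronically stimulated T cells. Of 11 early activation genes 1 was called lower, Nr4a2 (-1.11), a transcription factor induced by antigen receptor signals. Of 8 resting and memory genes 3 were called higher, Il7r (0.82), Ccr7 (0.78) and Klf2 (0.65). Ccr7 was also used to name the resting sub-cluster, whose share at 20 months depended on the genes clustered. Lag3 and Pdcd1 were among the markers from which CD8 T-like cells were named. Il7r and Ccr7 were also higher at 20 than at 4 months in macrophage-like cells, and the part of free RNA in their calls was not tested. Among all genes tested in this class, 1.45% were called lower and 2.36% higher.

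In regulatory T-like cells 3 of 12 early activation genes were called lower, Fos (-0.77), Egr2 (-0.72) and Fosb (-0.69), each a transcription factor of the immediate early response. Of 10 inhibitory receptors 1 was called lower, Pvrig (-0.69), and of 5 other TNF receptors 1, Tnfrsf25 (-0.76), the receptor of Tnfsf15. Of 5 ligands 2 were called lower, Cd86 (-0.69) and Cd40 (-0.65). Among all genes tested in this class, 3.28% were called lower. Cd86 and Cd40 were lower at 20 months in macrophage-like cells too, and the part of free RNA in these 2 calls was not tested. In NK-like cells Fos (-0.59) was the 1 of 11 early activation genes called lower, and Il7r (1.26) and Ccr7 (0.63) were called higher among 6 resting and memory genes. Among all genes tested in NK-like cells, 0.654% were called lower and 2.19% higher. Il7r in NK-like cells, at 9.81, 14.6 and 23.5 CPM, was below its macrophage-like level of 11.6, 16.5 and 23.6 CPM in each library and is not read as expressed. Ccr7, at 15.9, 27.1 and 24.6 CPM, lay close to its macrophage-like level of 14.6, 26.2 and 20.6 CPM. In the same NK-like cells Cd3e, Cd8b1 and Cd8a, genes of T cells, were higher at 20 than at 4 months by 0.80, 0.77 and 0.41, and by 0.93, 0.93 and 0.65 in macrophage-like cells, and their part in these calls was not tested.

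For each member the genes of most similar pattern were found by Pearson correlation of log2(CPM + 10) over 15 points, the 5 classes in 3 libraries, among 7410 genes. Points of a class share cells and points of a library share depth, so these values are descriptions. Tnfrsf4 was nearest to Ebi3 (0.99), which encodes a subunit of the cytokine IL-35 made by regulatory T cells, and Tnfrsf18 to Itm2c (0.98). Icos was nearest to Il2ra (0.97), the high-affinity subunit of the IL-2 receptor, and Cd226 to Cxcr6 (0.97), a chemokine receptor of tissue-resident lymphocytes. Tnfrsf9 was nearest to H2-K1 (0.94), Cd28 to Rac2 (0.92), Cd27 to Gm28053 (0.92), Crtam to Ctsd (0.95), Cd70 to Cbr3 (0.98) and Cd40lg to Hivep2 (0.91).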

How the data were processed

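Single-cell libraries were prepared with the PIP-seq 3′ kit from sorted CD45.2+ cells, per the labels. The matrices the authors deposited hold whole-number raw counts per gene and cell, with no normalization. STAR 2.7.10a and genome build GRCm38 are named in the submitters' processing notes. Whether reads or molecules were counted, the annotation and the cell calling are not given in the sources used here.

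Library totals at 4, 12 and 20 months came to 110371225, 127850782 and 119873564 counts. Barcodes under 500 counts or above 15% mitochondrial counts were dropped, and the 6% of cells with the highest Scrublet doublet scores in each library were removed. Cells were clustered with scanpy 1.11.5 and leidenalg 0.10.2 (2000 variable genes, 30 components, resolution 1.0) without the members and without 47 genes that stood 1.5-fold or more apart in 1 library in both T and myeloid cells. A cluster was named from fixed marker lists at a score of 0.4 or more with 3 or more markers detected. Counts were then summed per class and library. A library with no count was set to 3 counts for a ratio.

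All 10 genes, the pathway lists and the marker lists were chosen with earlier results of these data known. The text names every member, the genes nearest to each member in pattern, and up to 3 called genes of each direction per pathway list, with 2 further NF-kB genes chosen after their values were seen. A called gene of the resting and memory list is not reported here. The calling of changes was tested on simulated data. Alternatives to the naming, scaling, doublet filter, floor and fold were tried, with edgeR 4.0.16 used for TMM scaling only.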

Additional observations from a re-analysis of the deposited data

How the results depend on the processing

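No paired analysis was possible because each age had 1 library, and leaving out a replicate was not possible for the same reason. Of 724 log2 ratios recomputed under 12 alternatives, 585 differed by less than the counting interval of the ratio reported, 136 moved beyond it and 3 reversed. Conventional CD4 T-like cells were left out of these ratios. Classes set by lineage genes in single cells moved 39 of 64 ratios and reversed 2. Subtraction of the macrophage-like level moved 28 of 58. The reversed values were -0.69 for Crtam in regulatory and -0.00588 for Crtam in gamma-delta T-like cells (20 against 4 months, classes set by lineage genes in single cells), and 0.44 for Tnfrsf4 in gamma-delta T-like cells (12 against 4 months, sub-clusters at resolution 2.0). The cause was not tested.

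Tnfrsf9 in CD8 T-like cells was lower at 20 than at 4 months under all 12, from -0.99 with the macrophage-like level subtracted to -0.43 with library-specific genes kept in the clustering, an alternative chosen after seeing the data. The count of members called lower in CD8 T-like cells, 1, became 2 with that subtraction, which adds Tnfrsf4 at -0.83, or with no floor, and 0 without the resting sub-cluster, at 2-fold, or with library-specific genes kept. In conventional CD4 T-like cells the count of 3 became 1 under lineage genes, with doublets kept and at 2-fold, and 5 with library-specific genes kept. In regulatory T-like cells 0 became 1 under lineage genes and with no floor, and in gamma-delta T-like cells 0 became 1 with the subtraction and without dividing clusters. The 6 pairs of member and class called higher at 20 months became 3 under lineage genes, the subtraction or a mean over cells, and 1 at 2-fold or with library-specific genes kept. Of the 6, all but Crtam in regulatory T-like cells lay in conventional CD4 and gamma-delta T-like cells. In those classes 16.1% and 15.9% of genes were called higher. At 12 months the 2 pairs called lower became 6 under lineage genes, 4 without dividing clusters, and 1 at 2-fold or with library-specific genes kept. Under lineage genes NK-like cells numbered 147, 10 and 19 at 4, 12 and 20 months. Tnfrsf9, Icos, Cd28 and Crtam in that class were among the 6. The 4 called higher became 7 with TMM scaling or no floor, and 2 with a mean over cells, a floor of 50 CPM or 2-fold. Before these alternatives, the 12-month pairs all lay in conventional CD4 and gamma-delta T-like cells. Of genes there, 26.8% and 14.7% were called lower, and 16.4% and 15% higher. Tnfrsf18 was no longer higher in resting CD8 cells in all 3 libraries, giving 0, under lineage genes and with each sub-cluster named by its highest score, also chosen after seeing the data. Regulatory T-like cells were highest for 5 or 6 members under every alternative run. The alternative without the 10 highest cells was not run for conventional CD4 T-like cells, which numbered 9 at 4 months. The resting share of CD8 T-like cells was largest at 20 months under each naming alternative except with library-specific genes kept, where it was smallest, 11.2%.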
